A study of Homo sapiens with 6 samples.

Results

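The genes described here are 10 classical targets of estrogen, TFF1, TFF3, CA12, PDZK1, MYB, SIAH2, STC2, CXCL12, RERG and KCNK5, taken from a list of names. For each gene the compartment score was read in the 100 Kb bins that overlap its body and in 5 bins on either side. All 10 genes had a score, among 19710 protein-coding genes with one. Their windows cover 102 bins, of which 97 had a score in all 6 libraries, out of 27898 such bins in all. TFF1 and TFF3 lie in the same bin and have the same values throughout, so the 10 genes stand for 9 loci.

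All 6 libraries come from T47D, a luminal breast cancer line that carries the estrogen receptor. After 72 h without hormone, the parental cells were harvested before E2 (T0) or 1, 4, 16 and 24 h after E2 was added at 100 nM (T1, T4, T16 and T24). The sixth library is from tamoxifen-resistant T47D cells (TamR), which the labels call untreated and which, in the study's methods, were grown in hormone-depleted medium with 100 nM tamoxifen. It is 1 line, so resistance, the culture with tamoxifen and any other difference from the parental cells cannot be told apart. Contacts between regions of the genome were mapped by TCC, which is Hi-C with the ligation carried out on a solid surface. Each condition has 1 library, so no difference between conditions could be tested, and counts of genes are set beside the same share over all protein-coding genes. The deposited score is the first eigenvector of the contact matrix, given here multiplied by 1000. Bins with a positive score belong to compartment A, the open and gene-rich part of the genome, and those with a negative score to the closed compartment B. The scores of each library are scaled to nearly the same sum of squares (0.998 to 0.999 before multiplication), and the depth behind them is unknown from the files, so the width of the 5 parental scores is the only yardstick for a difference. That width includes any effect of E2 and is not a replicate error. The files hold no RNA, so neither the expression of these genes nor the identity of the cells could be checked.

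E2 enters the cell and binds estrogen receptor alpha, which then binds DNA at estrogen response elements and recruits coactivators and RNA polymerase. The 10 genes are described as targets of estrogen in breast cancer cells. Some of them are used as readouts of estrogen action and of its block by tamoxifen. The route by which each is induced was not measured here. Compartments are a coarse layer above the action of the receptor. A gene in B usually lies in a neighbourhood of closed and late replicating chromatin, but compartment and transcription need not change together.

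The estrogen response element is a palindrome of the letters GGTCA, any 3 bases and TGACC, so 1 strand covers both. It was searched in GRCh37, the same assembly as the hg19 of the bins. The matches are shown because the receptor can bind this sequence, and whether it does so at these loci was not measured here. Capitals mark the 13 letters of the element. TFF1 holds the best known element of the group, which departs from the palindrome at 1 letter. It was found by a search, added after the perfect matches were seen, of the 1000 bases before each start with at most 1 mismatch, which matched 1 of the 10 members and 2.45% of 20090 protein-coding genes. It lies 405 bases before the TFF1 start, in no annotated gene, at chr21:43787037-43787049 (minus strand), with the change A11G counted from 1 at the 5′ end of the element.
TFF1: ccctgcaaGGTCACGGTGGCCaccccgtg

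Perfect matches were present in the windows of 4 of the 10 members, against 63.4% of all protein-coding genes. The match nearest to each start is given on the plus strand. The one of SIAH2 lies 6.83 Kb inside the gene, in an intron, at chr3:150474431-150474443. That of STC2 lies 127 Kb upstream of the start, outside annotated genes, at chr5:172882861-172882873. That of CA12 lies 175 Kb beyond the start in an intron of RAB8B (chr15:63499074-63499086), and that of KCNK5 lies 274 Kb beyond the start in an intron of DNAH8 (chr6:38923207-38923219).
SIAH2: tagttccaGGTCATGGTGACCtgtgaaaa
STC2: tagaaacaGGTCACTTTGACCtacaatat
CA12: tgcactcaGGTCATCATGACCtccttgtt
KCNK5: gagtttgaGGTCAGCCTGACCaacatggc
A perfect element was present in 5.15% of the scored bins of the windows and in 7.17% of all scored bins. Within 10 Kb of the start, 1 of the 10 members and 1.9% of all protein-coding genes had one. The other windows do not hold these letters, which says nothing about binding of the receptor there.

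The 10 genes were in A in nearly every library. In the 5 parental libraries, 9 of 10 were in A throughout (74.3% of all protein-coding genes), and RERG alone was in B throughout (20.4% of all genes). None of the 10 changed compartment at any E2 time point (5.31% of all genes). In TamR, SIAH2 moved from A to B and RERG from B to A, so that 2 of 10 genes differed from T0 (9.6% of all genes) and 9 of 10 were in A in TamR (78.1% of all genes). The remaining 8 genes stayed in A in all 6 libraries.

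**Figure D1:**
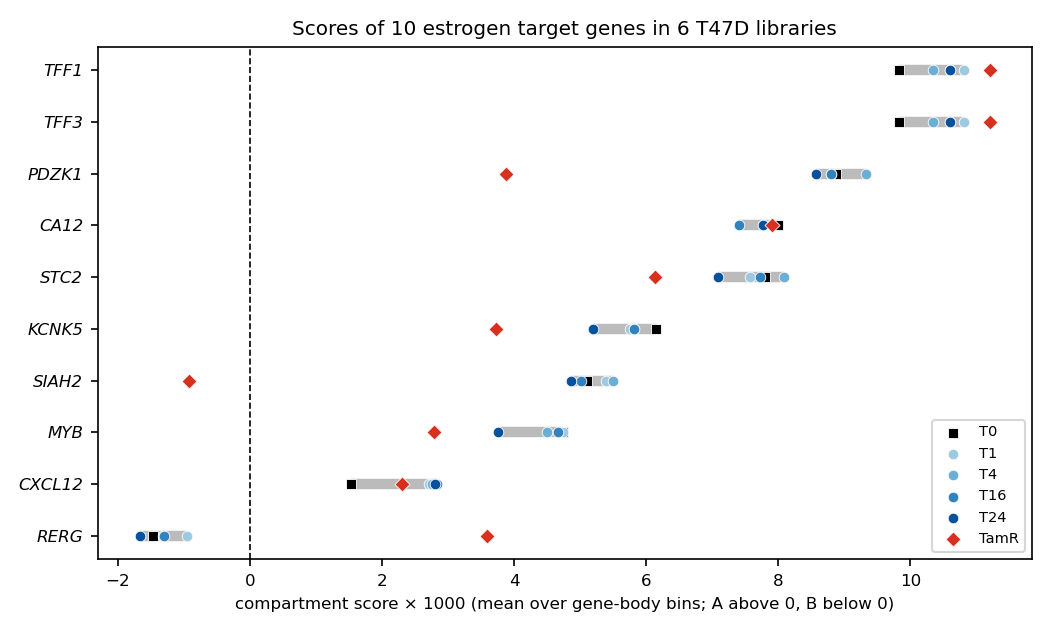
Mean compartment score (× 1000) over the gene-body bins of each gene (rows, ordered by parental mean) in T0 (black squares), the E2 libraries (blue circles, darker with time) and TamR (red diamonds), with the parental range as a grey bar and the border between A and B dashed at 0. SIAH2 is above 0 in the parental libraries and at -0.925 in TamR, RERG is below 0 in the parental libraries and at 3.59 in TamR, and the grey bars are short beside the distance of the red diamond for PDZK1, SIAH2 and RERG.

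The order of the levels was set by the mean of the 5 parental scores (± SD over the 5 libraries, which are conditions and not replicates). The trefoil pair stood highest at 10.4 ± 0.379, followed by PDZK1 at 8.87 ± 0.282. CA12 (7.77 ± 0.222) and STC2 (7.65 ± 0.367) overlapped in their ranges, as did KCNK5 (5.75 ± 0.344) and SIAH2 (5.17 ± 0.266). Below them came MYB at 4.48 ± 0.417, CXCL12 at 2.53 ± 0.561 and RERG at -1.34 ± 0.264, and none of these 3 overlapped its neighbours. Among all protein-coding genes these means lay between the 17.2nd percentile (RERG) and the 74.7th percentile (TFF1 and TFF3).

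TFF1 and TFF3 encode small secreted trefoil peptides that protect and repair epithelial surfaces. TFF1 (ENSG00000160182.3_8, chr21:43782391-43786644) and TFF3 (ENSG00000160180.17_11, chr21:43731777-43735519), both on the minus strand, share their bin with TFF2, ABCG1 and TMPRSS3. The score of the bin was 9.82 in T0, 10.8 in T1, 10.3 in T4, 10.6 in T16, 10.6 in T24 and 11.2 in TamR. T0 was the lowest and TamR the highest of the 6 libraries. TamR lay 0.388 above the highest parental score, less than the parental width of 0.986. The neighbourhood stood further apart than the bin itself, since TamR exceeded all 5 parental scores in 11 of 11 window bins, with a window mean of 12.2 against a parental mean of 10.4. TamR above all parental scores was found in 35% of all bins. The pair lies in a long A compartment that reaches to the last scored bin of chromosome 21 and measured 15.1 to 15.3 Mb in the 6 libraries.

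STC2, a secreted glycoprotein hormone of the stanniocalcin family (ENSG00000113739.11_10, chr5:172741726-172755450, minus strand), had scores of 7.80 in T0, 7.57 in T1, 8.09 in T4, 7.72 in T16, 7.09 in T24 and 6.13 in TamR. TamR was the lowest library, 0.957 under the lowest parental score, which is slightly less than the parental width of 0.996. In its window TamR was below all parental scores in 9 of 11 bins and above them in 2. The gene remained deep inside A, with 19 A bins between it and the compartment border on its left side in TamR against 31 to 32 in the parental libraries.

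CXCL12, a chemokine that acts through the receptor CXCR4 (ENSG00000107562.18_12, chr10:44865613-44881941, minus strand), had scores of 1.53 in T0, 2.71 in T1, 2.76 in T4, 2.84 in T16, 2.80 in T24 and 2.30 in TamR. T0 stood alone at the low end, and TamR fell between T0 and the E2 libraries. CXCL12 had the lowest parental level of the 9 members in A. It lay in a run of A bins of 2.8 Mb in T0 and TamR and 2.9 to 3.0 Mb in the E2 libraries. On the right side this run ended at a bin without a score, so the full length of the compartment is unknown.

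CA12, a carbonic anhydrase of the cell membrane (ENSG00000074410.14_12, chr15:63613577-63674045, minus strand), varied least. Its scores were 7.99 in T0, 7.88 in T1, 7.77 in T4, 7.40 in T16, 7.77 in T24 and 7.91 in TamR. TamR lay inside the parental range at the gene. To its left, in the direction of lower coordinates, the TamR scores were higher than all parental scores in the 5 flanking bins, by up to 2.95 over the parental mean. On the right side no flanking bin was higher in this way, and TamR was below all parental scores in 2 of the 5.

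KCNK5, a two-pore-domain potassium channel (ENSG00000164626.9_8, chr6:39156747-39197251, minus strand), had scores of 6.15 in T0, 5.75 in T1, 5.82 in T4, 5.82 in T16, 5.20 in T24 and 3.73 in TamR. TamR lay 1.47 under the lowest parental score, or 1.54 times the parental width. All 11 bins of its window were lower in TamR than in any parental library (43.6% of all bins), with a window mean of 3.08 against 5.07. All of them stayed in A. The A compartment around KCNK5 was 15 to 15.2 Mb long in the parental libraries and 10.4 Mb in TamR, where 8 A bins lay between the gene and the right border.

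PDZK1, a scaffold protein that anchors transporters at the membrane (ENSG00000174827.14_8, chr1:145726918-145764207, plus strand), had scores of 8.87 in T0, 8.79 in T1, 9.33 in T4, 8.79 in T16, 8.57 in T24 and 3.87 in TamR. The parental scores lay close together, and TamR was 4.70 under the lowest of them, or 6.15 times the parental width. Of its 11 window bins only 6 had a score in all libraries, because the 4 bins at the right end had none in any library and the bin next to the gene had none in TamR. The 6 scored bins were all lower in TamR, at -5.0 to -2.70 from the parental mean, and all stayed in A. This gene therefore sits at the edge of an unscored stretch, with scores to its left only, and the part of that position in the result was not tested.

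SIAH2, a RING ubiquitin ligase that marks proteins for degradation (ENSG00000181788.4_8, chr3:150458912-150481264, minus strand), had scores of 5.10 in T0, 5.39 in T1, 5.50 in T4, 5.01 in T16, 4.86 in T24 and -0.925 in TamR. The 5 parental scores lay within 0.635 of each other, and TamR was 5.79 under the lowest, or 9.11 times that width. The TamR difference from the parental mean, -6.10, stood at the 0.416th percentile of all protein-coding genes and at the 2.11th percentile of the scored bins of chromosome 3, whose median was 0.132. SIAH2 lay in an A compartment of 3.8 Mb in T0. In TamR its bin was the first of a B compartment of 5.9 Mb (chr3:150400001-156300000), so the gene lay at the border. The 5 bins to its left stayed in A at low scores and the 5 bins to its right were in B, down to -4.58. In bins of 500 Kb, which average across this border, the score of SIAH2 in TamR was 0.632 and the gene stayed in A.

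RERG, a small GTPase of the RAS superfamily that restrains growth (ENSG00000134533.6_13, chr12:15260717-15501609, minus strand), spans 4 bins. Its mean scores were -1.48 in T0, -0.949 in T1, -1.32 in T4, -1.30 in T16, -1.66 in T24 and 3.59 in TamR. TamR was 4.54 above the highest parental score, or 6.34 times the parental width, and its difference from the parental mean, 4.93, stood at the 96.5th percentile of all genes. The gene was uneven in the parental cells. From lower to higher coordinates its bins scored -0.238, 0.510, -2.62 and -3.55 in T0, so that the bin with the start was the most negative and another bin was in A. In TamR the same bins scored 2.53, 4.56, 4.05 and 3.21. The bin of the start lay in a B compartment of 0.3 Mb in T0 and 0.8 Mb in T24, and in an A compartment of 4.6 Mb in TamR.

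MYB, a transcription factor of progenitor and luminal cells (ENSG00000118513.20_15, chr6:135502446-135540311, plus strand), had scores of 4.75 in T0, 4.74 in T1, 4.49 in T4, 4.67 in T16, 3.76 in T24 and 2.79 in TamR. TamR was the lowest and T24 the next, and TamR lay 0.967 under it, or 0.978 times the parental width. The gene stayed in A, but its surroundings did not. In T0 it lay in an A compartment of 6.6 Mb, and in TamR in one of 0.6 Mb (chr6:135200001-135800000) with B on both sides. Inside the window, 2 bins at the left end and 3 at the right end moved from A to B.

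**Figure D2:**
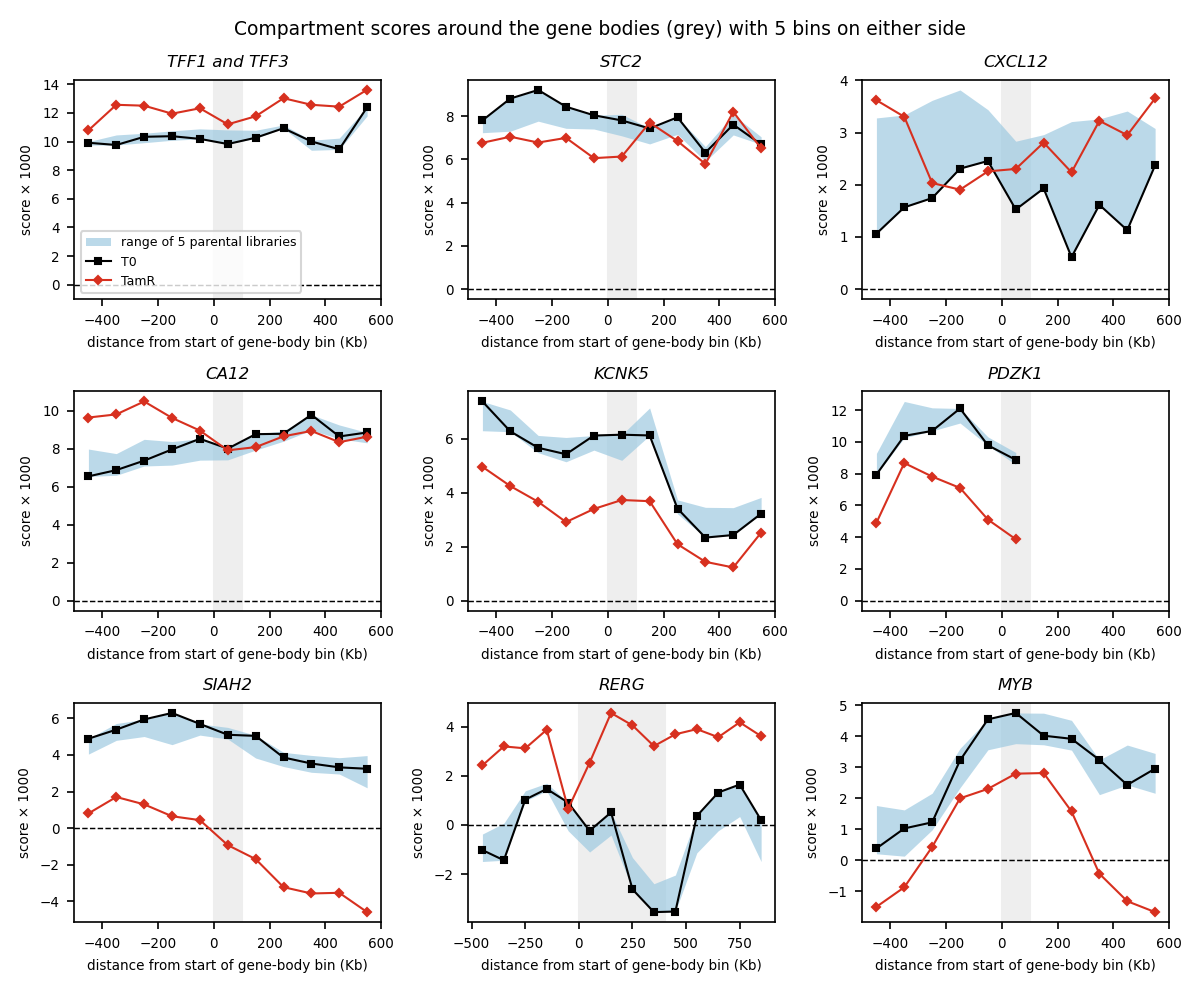
Compartment score (× 1000, vertical axis) of each 100 Kb bin against its distance in Kb from the start of the first gene-body bin, 1 panel per locus, in T0 (black), TamR (red) and over the range of the 5 parental libraries (blue band), with the gene-body bins in grey and bins without a score left out. The TamR line falls through 0 at SIAH2, stays above 0 along RERG, is above 0 only around the gene for MYB, and lies over the band in all 11 bins for TFF1 and TFF3.

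During E2 treatment the members moved little and in both directions. All 4 E2 scores were above T0 at TFF1, TFF3 and CXCL12, which is 3 of 10 genes (27.3% of all protein-coding genes). All 4 were below T0 at CA12, KCNK5 and MYB, again 3 of 10 (25.4% of all genes). Both shares are close to those of all genes. With the scores quantile-normalised to T0, 5 genes were above T0 at every time point (TFF1, TFF3, CXCL12, SIAH2 and RERG) (25.5% of all genes) and 2 below it (CA12 and KCNK5, against 28.9% of all genes). Without T4, 5 genes were below T0 throughout (STC2, CA12, KCNK5, PDZK1 and MYB, against 29.1% of all genes). The direction of KCNK5 turned with window means and with bins of 500 Kb, where all its E2 scores were above T0. With window means, CA12 and MYB were no longer below T0 at every time point, whereas STC2 was.

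CXCL12 showed the largest E2 difference of the 10. Its scores exceeded T0 by 1.19, 1.23, 1.31 and 1.27 after 1, 4, 16 and 24 h of E2. In the bin of the gene the difference was near its full size at T1, and the E2 libraries differed among themselves far less than from T0. The mean E2 difference of 1.25 stood at the 93.8th percentile of all genes. Its direction was shared by the neighbourhood, since all 4 E2 scores were above T0 in 11 of 11 bins of the window (23.1% of all bins), with a window mean of 1.67 in T0 and 2.90 in the E2 libraries. A gap between T0 and the E2 scores wider than the range of the E2 scores was seen in 5 of these 11 bins (9.68% of all bins). The time course was not the same in all of them. At chr10:44300001-44400000 the score was 1.06 in T0, 1.86 in T1, 2.82 in T4 and 3.25 in T16.

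The trefoil bin exceeded T0 by 0.986, 0.514, 0.771 and 0.774 at the same times, and the mean of these differences stood at the 82.9th percentile of all genes. Its neighbourhood shared this less. All 4 E2 scores were above T0 in 4 of 11 window bins (23.1% of all bins), with a window mean of 10.31 in T0 and 10.46 in the E2 libraries. A gap wider than the range of the E2 scores was seen in 1 of these 11 bins (9.68% of all bins), that of the genes. T0 was clear of the E2 range, by the same definition, at TFF1, TFF3 and CXCL12, or 2 of 9 loci (9.51% of all genes). All of these differences rest on a single T0 library, so that a difference of E2 from T0 and a peculiarity of the T0 library cannot be told apart.

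STC2, KCNK5, PDZK1, SIAH2, RERG and MYB had their lowest parental score at T24. The share of all genes with their lowest score at T24 was not computed, so whether this is particular to the members is unknown. Among these genes the difference from T0 was largest for MYB (-0.989), KCNK5 (-0.951) and STC2 (-0.713). At T24 only 3 of the 10 members were above T0, against 5 at T1, 7 at T4 and 4 at T16, while the shares of all genes above T0 were 53.7% at T24, 54.4% at T1, 48.6% at T4 and 49.9% at T16. T24 is also the parental library that correlates least with T0 over all bins (0.985 against 0.992 to 0.994 for the other E2 libraries, over 27898 bins that are not independent), and the part of this in the low T24 scores was not tested. The bins whose compartment changed at some E2 time point numbered 6 of 97 in the windows (7.11% of all bins), and all 6 lay in the window of RERG.

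**Figure D3:**
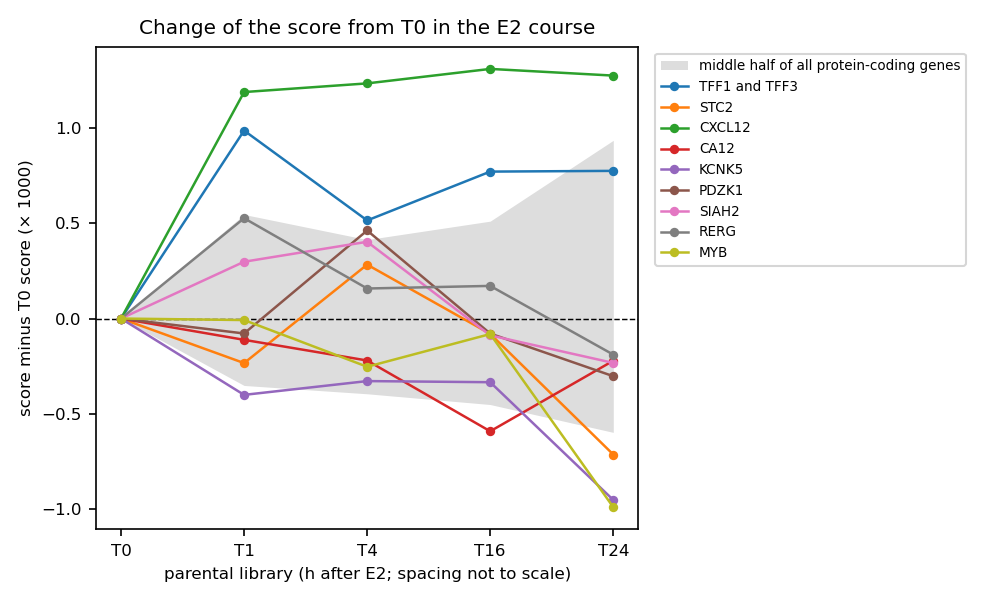
Score at each E2 time point minus the T0 score (× 1000, vertical axis) for the 9 loci (lines) over the parental libraries in order of time, with the interquartile range of all protein-coding genes in grey. CXCL12 is above the grey area at all 4 time points, between 1.19 and 1.31, and KCNK5 and MYB end lowest, at -0.951 and -0.989.

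In TamR the members spread widely around the parental levels. TamR was below all 5 parental scores at 5 of 10 genes, STC2, KCNK5, PDZK1, SIAH2 and MYB (46.7% of all protein-coding genes). It was above all of them at TFF1, TFF3 and RERG, or 3 of 10 (30.4% of all genes), and within the parental range at CXCL12 and CA12. TamR was outside the parental range by more than the width of that range at PDZK1, SIAH2, KCNK5 and RERG, or 4 of 10 genes (39.1% of all genes), of which RERG was above it (17.8% of all genes) and 3 were below it (21.3% of all genes). These shares are close to the background. The last count depended on the processing, at 8 of 10 with window means or quantile normalisation and 7 of 10 in bins of 500 Kb (48.6%, 44.4% and 46.3% of all genes).

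The median difference between TamR and the parental mean was -0.872 over the 10 members and -0.453 over all protein-coding genes, and -1.52 over the 9 loci with the trefoil pair counted once. With window means the order turned, at -0.298 for the members and -0.376 for all genes. SIAH2 (-6.10) stood at percentile 0.416 of all genes, PDZK1 (-5.0) at percentile 1.01 and RERG (4.93) at percentile 96.5. The differences of KCNK5 (-2.02), MYB (-1.69), STC2 (-1.52), CXCL12 (-0.223), CA12 (0.140) and the trefoil pair (0.765) lay between the 15.2nd and 73.2nd percentiles. Quantile normalisation to T0 moved the median of all genes from -0.453 to -0.230.

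**Figure D4:**
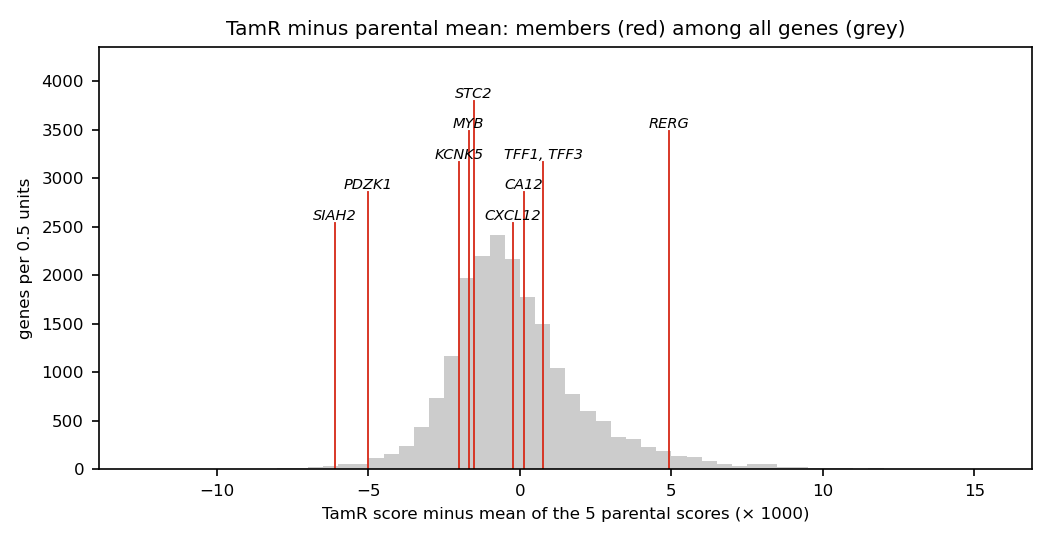
Distribution over all protein-coding genes (grey bars, genes per interval of 0.5) of the TamR score minus the mean of the 5 parental scores (× 1000), with the 9 loci as red lines. SIAH2 at -6.10 and PDZK1 at -5.0 lie in the left tail and RERG at 4.93 in the right tail, and the other loci lie within the bulk.

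The change from T0 to TamR extended past the genes. Of the 97 scored bins in the windows, 17 changed compartment, or 17.5% (95% Wilson interval 11.2 to 26.3%, too narrow because neighbouring bins are not independent), against 13.9% of all bins. They lay at 3 loci, with 6 bins at SIAH2, 6 at RERG and 5 at MYB. From A to B there were 11 bins (6.27% of all bins) and from B to A 6 (7.67% of all bins).

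At SIAH2 the changed bins form 1 run inside the window (chr3:150400001-151000000), with a mean of 4.01 in T0 and -2.92 in TamR. The run goes on past the window to chr3:152200000, 18 bins in all, and 8 protein-coding genes overlap its part inside the window, the first being ERICH6, SIAH2, MINDY4B, ENSG00000260234 and CLRN1. At MYB a run of 2 bins on the left belongs to one of 8 bins (chr6:134400001-135200000), and its part inside the window overlaps no protein-coding gene. The run of 3 bins on the right also belongs to one of 8 bins (chr6:135800001-136600000) and overlaps AHI1 inside the window. At RERG a run of 3 bins (chr12:15400001-15700000, mean -3.23 in T0 and 3.65 in TamR) covers the start of RERG and part of PTPRO, a receptor tyrosine phosphatase. A second run of 2 bins at the left edge of that window, with PLBD1 and GUCY2C, is the end of a run of 15 bins that changed from B to A (chr12:13400001-14900000).

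The gene whose pattern over the 6 libraries was nearest to that of SIAH2, the member with the largest absolute difference in TamR, was SHTN1 on chromosome 10 (chr10:118640988-118886097), at a Euclidean distance of 0.549 among genes of other chromosomes. It scored 5.05 in T0 and -1.26 in TamR. The next were its neighbour ENO4 (distance 0.709) and ABLIM1 (distance 1.09), also on chromosome 10. Picked for their closeness to SIAH2 over these same scores, all 3 were in A in the parental libraries and slightly under 0 in TamR.

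A wider list of 70 genes that estrogen induces in breast cancer cells was read in the same way. It was compiled from their known response to E2, but with earlier results of these data known. In the parental libraries 57 of 70 were in A throughout, or 81.4%. From T0 to TamR, 7 of 70 changed compartment, or 10%, close to the 9.6% of all genes. The direction was uneven, with 6 from A to B (8.57%, against 4.45% of all genes) and 1 from B to A (1.43%, against 5.15% of all genes). In T0, 82.9% of the list and 77.4% of all genes were in A, and the part of this in the uneven direction was not tested. Some genes of the list share a bin and have the same scores. The median difference between TamR and the parental mean was -0.984 over the list. TamR was below all 5 parental scores at 40 of 70 genes (57.1%, against 46.7% of all genes) and above them at 15 (21.4%, against 30.4%). It was clear of the parental range below at 26 (37.1%, against 21.3%) and above at 8 (11.4%, against 17.8%).

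The genes of the list that moved from A to B were GREB1, a coactivator of the estrogen receptor (4.14 in T0 and -0.640 in TamR), BCL2, an inhibitor of apoptosis (2.87 and -2.16), PRSS23, a secreted serine protease (2.56 and -1.38), TPBG, a membrane glycoprotein (2.61 and -0.556), HSPB8, a small heat shock protein (0.0216 and -1.19), and NRIP1, a corepressor of nuclear receptors (2.02 and -0.0849). HSPB8 at T0 and NRIP1 in TamR were almost at the border. AREG, a ligand of the EGF receptor, moved from -0.358 in T0 to 5.49 in TamR, with parental scores around the border (mean 0.0332).

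The lowest differences between TamR and the parental mean in the list were those of PGR, the progesterone receptor (-7.06), GREB1 (-5.0) and NPY1R, a receptor of neuropeptide Y (-4.12). PGR scored -0.276 in T0 and -6.62 in TamR and NPY1R -1.18 and -5.26. NPY1R was in B in all 6 libraries, whereas PGR was slightly above 0 in the 4 E2 libraries, between 0.291 and 0.847. High differences were those of ZNF185 (6.69) and AREG (5.46). SIAH2 and PDZK1 among the 10 members had differences as low as that of GREB1.

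**Figure D5:**
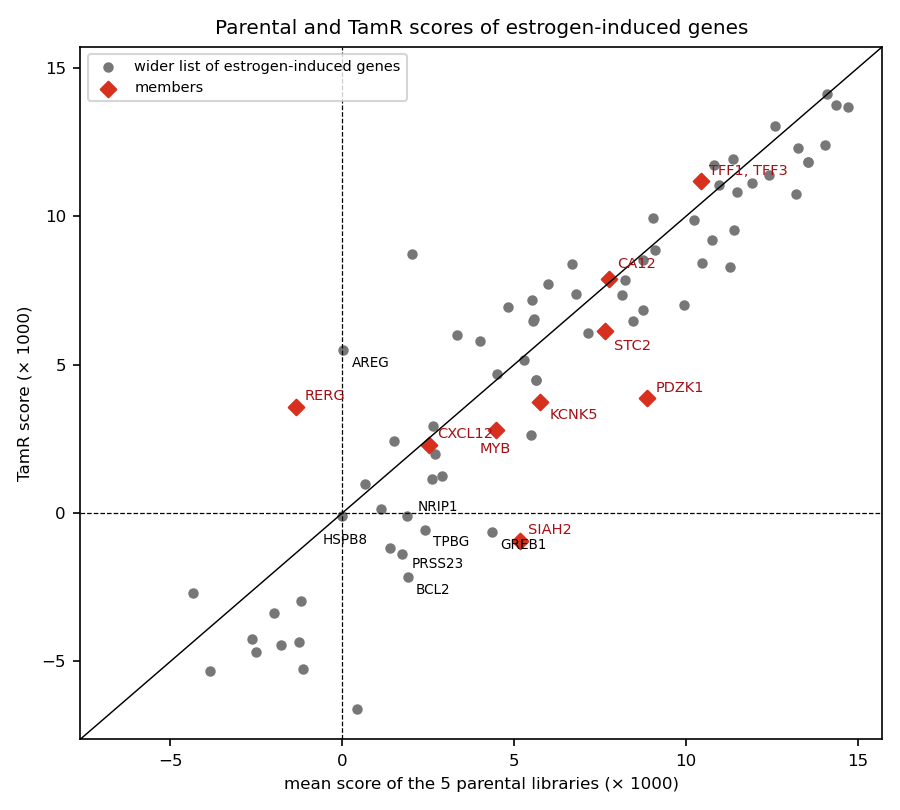
TamR score (× 1000, vertical axis) against the mean of the 5 parental scores (× 1000, horizontal axis) for the 70 genes of the wider list (grey) and the 9 loci of the members (red diamonds), with the line of equal scores and the borders between A and B dashed at 0. SIAH2 and 6 genes of the list lie in the lower right part after a change from A in T0 to B in TamR, with PGR also slightly right of the border at a TamR score of -6.62, and RERG is alone among the members in the upper left.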

How the data were processed

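TCC libraries of T47D cells, 1 per condition, were analysed. Per the study's methods the authors aligned reads iteratively to hg19 with bowtie2, removed low-coverage bins, corrected the 100 Kb contact matrix iteratively, kept contacts between chromosomes and computed the first eigenvector with HiCLib. The authors deposited this eigenvector as a score per bin, with 0 where a bin has none. Whether replicates were pooled is not stated for T47D.

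Bins at 0 in any library were left out. Scores were multiplied by 1000 and averaged over the bins overlapping each gene body (GENCODE release 44 mapped to GRCh37). A difference was called clear when it exceeded the width of the parental range. No test was made. The members and lists were chosen with earlier results of these data known. All 10 members are named. From the wider list, genes that changed compartment and the 3 with the largest differences in each direction are named, except 1 item that is not reported here. Python 3.11.15, numpy 2.4.6, pandas 2.3.3, scipy 1.17.1 and matplotlib 3.10.9 were used. The calls were checked on simulated tracks with planted shifts larger than any difference of the members. Smaller shifts and the rate of false calls were not checked. Alternatives were the start bin, window means, bins at 0 kept, scaling, quantile normalisation, a median border, 500 Kb bins, 10 flanking bins, each E2 time point left out and counting by locus.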

Additional observations from a re-analysis of the deposited data

How the results depend on the processing

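No paired analysis was possible because every condition is a single library. The files give no contact counts, so how far depth limits these scores was not assessed. A count is given where it moved by over 1.5 times, a share where it left its 95% Wilson interval, and the median difference where it moved by more than the SD over the 5 parental libraries. This held for 12 values and not for 113, and the cause was not tested. Window means gave 5 members above T0 at all E2 time points (33.1% of all genes), 1 below (24.7% of all genes), 8 with TamR clear of the parental range (48.6% of all genes) and a median difference between TamR and the parental mean of -0.298 (-0.376 over all genes). Quantile normalisation to T0 gave 5 above T0 (25.5% of all genes), 8 clear (44.4% of all genes) and a median of -1.07 (-0.230 over all genes). Bins of 500 Kb gave 1 member changed from T0 to TamR (9.48% of all genes), 7 clear (46.3% of all genes) and a median of -0.683 (-0.422 over all genes). Without T4, 5 members were below T0 at every remaining time point (29.1% of all genes). Counting by locus gave a median of -1.52. The sign of the TamR difference was kept under all 11 alternatives for 9 members, and CXCL12 turned to 0.0985 with window means. The difference ranged from -6.61 to -4.66 for SIAH2, from -5.10 to -4.14 for PDZK1 and from 3.75 to 6.17 for RERG.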

Other observations

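In the wider list of 70 estrogen-induced genes, 4 changed compartment at some E2 time point (5.71%, against 5.31% of all protein-coding genes). These were PGR, FHL2, AGR2 and AREG, of which FHL2 and AGR2 are named after their values were seen. PGR and AREG were slightly below 0 in T0, at -0.276 and -0.358, and so was FHL2 at -0.364, a cofactor with LIM domains. All 4 E2 scores were above T0 at 25 of the 70 genes (35.7%, against 27.3% of all genes) and below T0 at 18 (25.7%, against 25.4%).

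The bins of the members ranged in GC content from 36.8% at RERG to 50.7% at TFF1 and TFF3. The mean over the scored bins of the windows was 42.5%, against 40.9% over all scored bins. The windows held 1.01 starts of protein-coding genes per scored bin, against 0.705 over all scored bins.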
